A study of Mus musculus with 16 samples.

Results

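The genes described here are 37 keratin, desmosome and cornified envelope genes of stratified squamous epithelium, taken by symbol from a table of 24964 gene symbols. All 37 were in the table, and 35 passed the filter on low counts that left 15385 genes for testing (the genes for the envelope proteins involucrin, Ivl, and Sprr1b did not). They were measured in 16 RNA-seq libraries, each made from a 4 mm biopsy of the stomach corpus at its lesser curvature in female mice aged 8 weeks, with 4 libraries in each of 4 groups. WT-S and WT-A came from wild-type C57BL/6 mice. TTP-S and TTP-A came from congenic C57BL/6 mice with the TTPΔARE genotype, an allele of Zfp36 from which a regulatory AU-rich stretch has been deleted, so that its transcript is more stable. Zfp36 encodes tristetraprolin, a protein that destabilises mRNAs. The treatment label of the A groups is adrenalectomy with the gastric inflammation that follows, and that of the S groups names spasmolytic polypeptide-expressing metaplasia. The labels neither spell out S nor mention surgery for the S mice. Zfp36 itself was at 110.5 to 131 CPM in the TTP groups and at 55.1 to 88.6 CPM in the wild-type groups. The labels do not say that the replicates were separate mice, so p-values measure only the spread between these libraries.

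The mouse stomach has 2 lining types. The proximal forestomach is covered by a keratinised stratified squamous epithelium, and the corpus by a simple glandular epithelium. In squamous epithelium, basal cells carry Krt5, Krt14 and Krt15 and the transcription factor p63. Cells that leave the basal layer replace these by Krt4 and Krt13 or by Krt1 and Krt10, depending on the site. The outermost cells build a cornified envelope from precursors such as loricrin and the small proline-rich (Sprr) proteins, which transglutaminases cross-link. Krt6a, Krt6b, Krt16 and Krt17 are made by keratinocytes that are wounded, stressed or proliferating, and are called activation keratins here.

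Library totals ran from 17453930 to 25849472 counts, and levels are given as CPM, counts divided by the TMM-adjusted library total in megacounts. The squamous transcripts varied between libraries far more than most genes. The median standard deviation within a group was 1.63 on the log2 scale for the 35 tested members, against 0.165 for all genes tested, and the median range over the 16 libraries was 6.72 log2 units against 0.71. Of the 37 members, 28 differed by at least 10-fold between their lowest and highest library. The library labelled WT-A 2 was the highest of all 16 for 33 members, WT-A 3 for 2, and TTP-S 1 and TTP-S 4 for 1 each. In 3 libraries, WT-S 1, WT-S 2 and TTP-A 3, Krt5 had 10 or fewer counts, and in each of these 16 of the 37 members had at most 3 counts. The same 3 libraries stand apart in every result below that rests on Krt5. The amount of squamous tissue in a biopsy was not recorded in the labels, and in bulk RNA fewer cells of a type and less RNA per cell cannot be told apart.

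**Figure D1:**
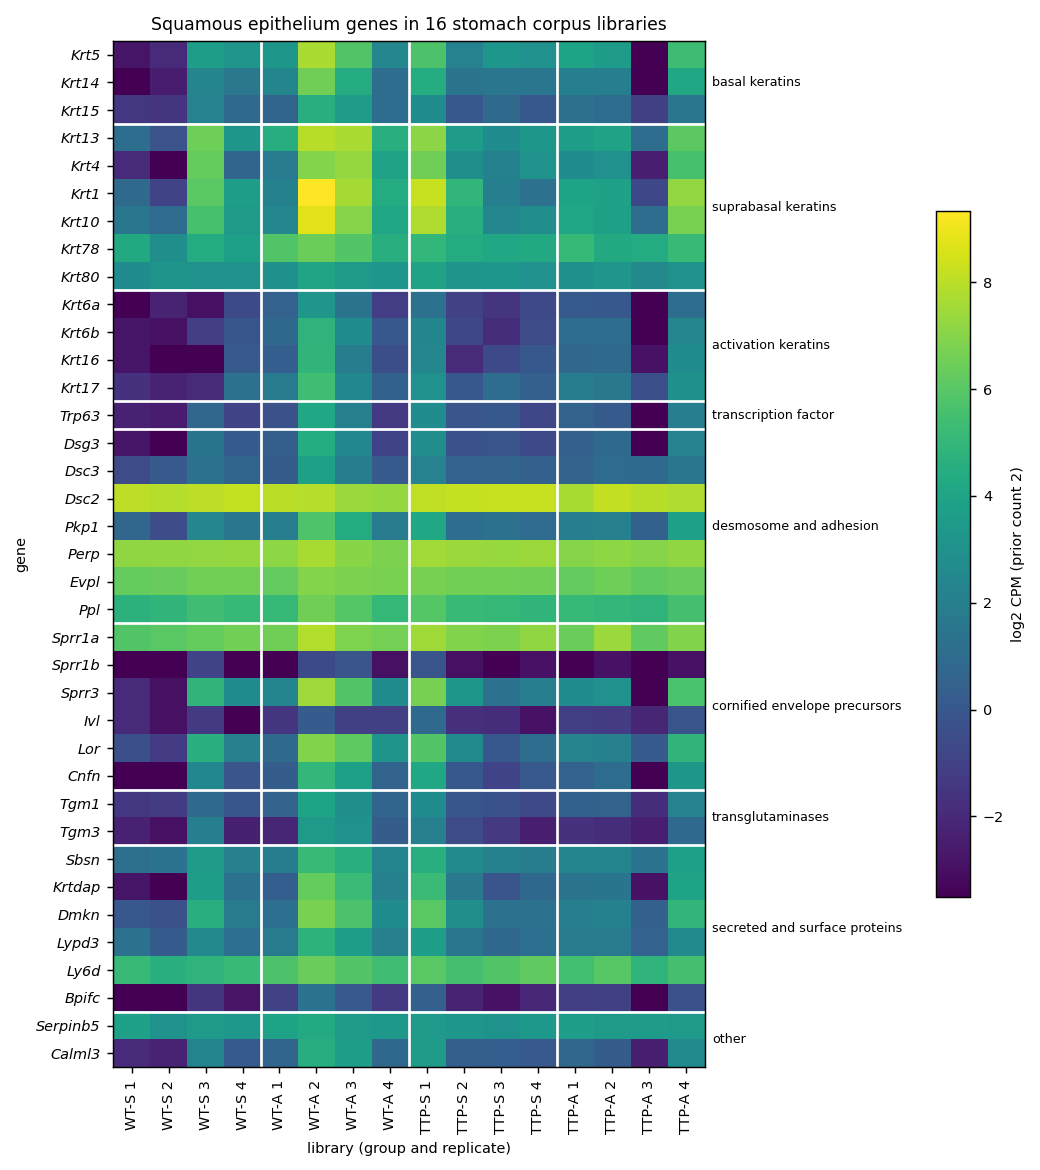
Level of each gene (rows, ordered by role) in each library (columns, group and replicate) as log2 CPM with a prior count of 2, colour from dark (low) to yellow (high). WT-A 2, WT-A 3, TTP-S 1 and TTP-A 4 are bright over most rows, WT-S 1, WT-S 2 and TTP-A 3 are dark, and Dsc2, Perp, Evpl and Sprr1a keep nearly the same colour across all 16 columns.

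Among the basal keratins, Krt5 (chromosome 15, 101707070 to 101712898, minus strand, in GRCm38 with GENCODE M21), the type II keratin of basal cells, was at 0.0560, 0.170, 13.0 and 9.01 CPM in WT-S 1 to 4. In WT-A 1 to 4 it was at 9.74, 209, 56.9 and 5.30 CPM. In TTP-S 1 to 4 it was at 53.1, 4.49, 9.39 and 7.97 CPM, and in TTP-A 1 to 4 at 15.5, 11.7, 0 and 41.1 CPM. Each group therefore held libraries that differed by at least 10-fold, and all 4 groups overlapped. TTP-A 3 had 0 of 21465006 counts, which allows up to 0.144 CPM (3 counts, counting error only).

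The partner of Krt5 in the basal filament, the type I keratin Krt14 (chromosome 11, 100203162 to 100207548), ran from 0 in WT-S 1 and TTP-A 3 to 94.1 CPM in WT-A 2. Krt15, another basal type I keratin, ran from 0.254 to 24.3 CPM and was not at 0 in any library. Trp63 (chromosome 16, 25683763 to 25892102), which encodes the p63 factor that squamous basal cells require, was at 0.112, 0.0848, 1.58 and 0.461 CPM in WT-S and at 0.722, 18.0, 4.17 and 0.304 CPM in WT-A. It was at 6.60, 0.823, 0.939 and 0.492 CPM in TTP-S and at 1.41, 1.01, 0 and 3.84 CPM in TTP-A. Trp63 and Krt14 were high and low in the same libraries as Krt5.

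In the suprabasal layers, Krt13, the type I keratin of the suprabasal layers of internal squamous linings, was at 2.07, 0.763, 89.9 and 9.73 CPM in WT-S and at 22.6, 250.3, 209 and 23.1 CPM in WT-A. In TTP-S it was at 135, 11.4, 6.62 and 9.69 CPM, and in TTP-A at 13.0, 14.6, 2.02 and 67.2 CPM. Its partner Krt4 ran from 0 in WT-S 2 to 159 CPM in WT-A 3. WT-S 3 stood out for this pair: it held 79.2 CPM of Krt4, more than WT-A 1 and WT-A 4 together, with only 13.0 CPM of Krt5.

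Krt1 and Krt10, the pair typical of keratinising epithelium, reached the highest single values of the 37 genes. In WT-A 2, TTP-S 1, WT-A 3 and TTP-A 4 Krt1 reached 644, 301, 195 and 152 CPM, whereas WT-S 2 and TTP-A 3 had 0.467 and 0.528 CPM. The range of Krt1 was 1381-fold and that of Krt10 was 235-fold. Krt78, a type II keratin of differentiated keratinocytes, had a narrower range, 11.8-fold, and at least 171 counts in every library. Krt80, a widely expressed type II keratin, moved by only 2.76-fold, from 5.67 to 15.7 CPM.

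**Figure D2:**
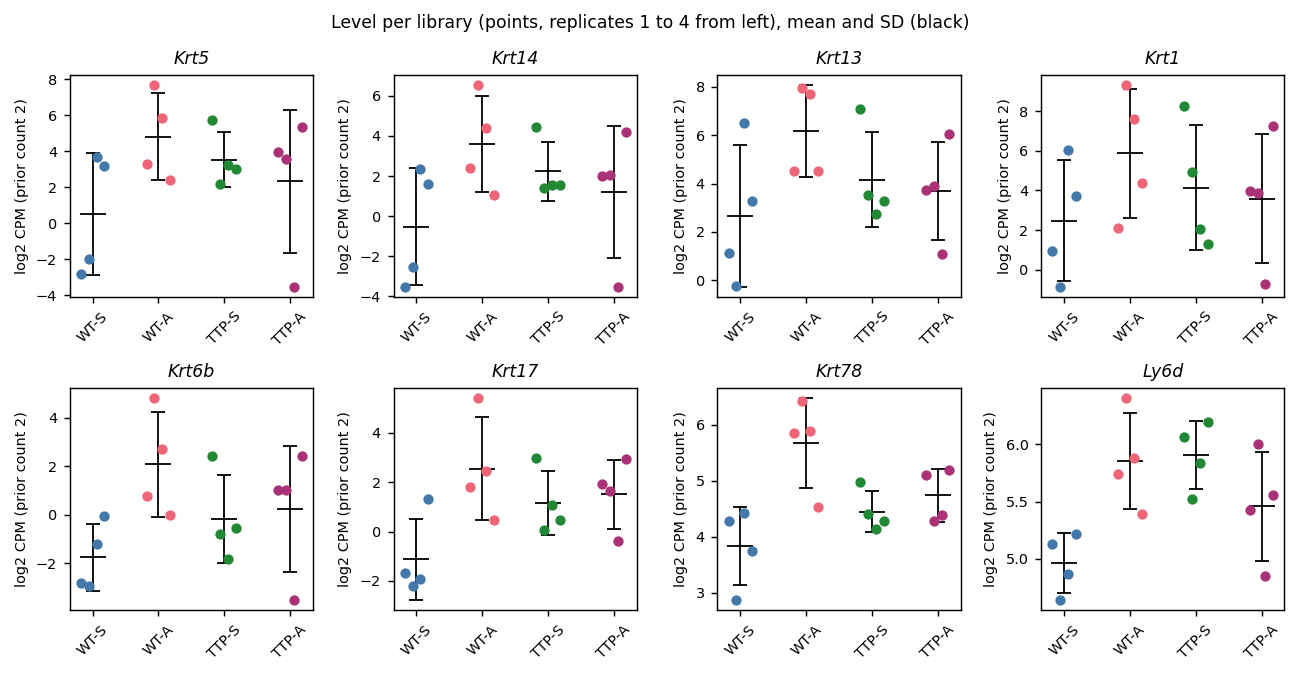
Log2 CPM (prior count 2) of 7 keratins and Ly6d by group, with 1 point per library (replicates 1 to 4 from left), and the mean with its SD in black. Krt5, Krt14, Krt13 and Krt1 spread over several log2 units within each group, whereas for Krt78 and Ly6d all 4 WT-A points lie above all 4 WT-S points. How many of all genes separate in this way was not computed.

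Cornified envelope genes followed. Loricrin, encoded by Lor and the main envelope protein of keratinising epithelium, was at 0.672, 0.339, 25.0 and 4.10 CPM in WT-S and at 1.80, 119, 69.9 and 8.70 CPM in WT-A. It was at 60.2, 6.01, 0.939 and 2.02 CPM in TTP-S and at 4.54, 4.20, 1.06 and 29.4 CPM in TTP-A. The 5 libraries with the most Lor were also the 5 with the most Krt1. Sprr3, an envelope precursor of internal squamous linings, ran from 0 in TTP-A 3 to 173 CPM in WT-A 2, and Cnfn (cornifelin) from 0 in WT-S 1, WT-S 2 and TTP-A 3 to 31.8 CPM. Ivl stayed at or under 1.78 CPM and Sprr1b at or under 0.819 CPM in all libraries. The transglutaminases Tgm1 and Tgm3 reached 15.5 and 10.8 CPM in WT-A 2. Suprabasin (Sbsn), Krtdap and dermokine (Dmkn), secreted proteins of differentiating keratinocytes whose genes lie within 39.6 kb on chromosome 7, reached 35.6, 78.1 and 109 CPM in the same library, and were at 2.30, 0.0560 and 0.896 CPM in WT-S 1. Calml3, a calmodulin-like protein of squamous cells, reached 22.3 CPM.

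The 5 envelope precursor genes Lor, Sprr3, Sprr1a, Sprr1b and Ivl lie within 493 kb of chromosome 3, the epidermal differentiation complex. The promoters of Lor and Sprr3 are shown with those of Krtdap, Krt10 and Bpifc because each of these 5 genes varied with Krt5 across the 13 libraries that had it, and 2 short motifs recur in them. Of the 37 genes, 19 had a promoter window (250 bases before to 50 after an annotated start) in the RefSeq table of build GRCm38.p6, with 23 windows in all. The letters TATAAA, the TATA box, searched on both strands, were in 8 of the 23 windows (34.8%) and in 13.6% of all 32851 windows of that length in the table. The letters TGANTCA, the AP-1 site, also on both strands, were in 13 of 23 windows (56.5%) and in 7.81% of all windows. These shares are descriptions; 3 of the windows belong to Dmkn, of which 2 overlap, and a match is no evidence that a factor binds there. The following lines give the 100 bases before the start, 5′ to 3′ on the gene's strand, with both motifs in capitals.
Lor, chr3:92083143-92083242, minus strand: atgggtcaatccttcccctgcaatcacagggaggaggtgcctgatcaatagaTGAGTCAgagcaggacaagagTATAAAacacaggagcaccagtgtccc
Sprr3, chr3:92458721-92458820, minus strand: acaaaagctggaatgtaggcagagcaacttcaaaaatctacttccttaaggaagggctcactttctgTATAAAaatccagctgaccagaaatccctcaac
Krtdap, chr7:30787805-30787904, plus strand: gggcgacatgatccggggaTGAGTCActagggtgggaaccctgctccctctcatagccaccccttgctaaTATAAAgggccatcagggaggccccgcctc
Krt10, chr11:99389365-99389464, minus strand: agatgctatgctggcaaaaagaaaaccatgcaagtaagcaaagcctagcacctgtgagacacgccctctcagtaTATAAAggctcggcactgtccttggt
Bpifc, chr10:86011861-86011960, minus strand: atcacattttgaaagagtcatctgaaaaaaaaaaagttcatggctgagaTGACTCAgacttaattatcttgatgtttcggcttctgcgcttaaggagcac
In these 5 sequences the TATA letters began 26 to 33 bases before the start for Lor, Sprr3, Krtdap and Krt10, and Bpifc had an AP-1 match 51 bases before its start and no TATA letters. The windows of 6 of the 19 genes, Krt5, Krt14, Krt78, Tgm1, Cnfn and Lypd3, held neither motif, although Krt14, Tgm1, Cnfn, Lypd3 and Krt78 also varied with Krt5 (r = 0.98, 0.94, 0.91, 0.90 and 0.75).

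Of the desmosome genes, desmoglein 3 (Dsg3), the adhesive cadherin of basal squamous cells, was at 0.0560, 0, 2.73 and 1.08 CPM in WT-S and at 1.19, 21.4, 5.46 and 0.435 CPM in WT-A. In TTP-S it was at 6.81, 0.741, 0.791 and 0.541 CPM and in TTP-A at 1.27, 1.79, 0 and 4.49 CPM. Plakophilin 1 (Pkp1), which anchors keratins at the desmosome, ran from 0.636 to 55.7 CPM, and desmocollin 3 (Dsc3) from 0.616 to 13.5 CPM. Dsg3 and Pkp1 were lowest in the 3 libraries almost without Krt5. Dsc3 was not: TTP-A 3, with no Krt5 counts, held 1.73 CPM of Dsc3, more than WT-A 1 or TTP-A 1. Desmocollin 2 (Dsc2), present in simple epithelia too, lay between 156 and 303 CPM in all libraries, and WT-A 3 and WT-A 4 were the lowest. Perp, a p63 target of desmosomes, lay between 112 and 202 CPM, envoplakin (Evpl) between 73.9 and 123 CPM, and periplakin (Ppl) between 27.0 and 95.1 CPM.

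The level of a gene per kilobase of exon allows genes to be compared with each other. The median over 16 libraries was 133 CPM per kb for Sprr1a, 74.9 for Perp, 62.4 for Ly6d and 49.1 for Dsc2, against 4.35 for Krt5, 1.95 for Krt14, 7.60 for Krt13 and 0.105 for Trp63. The 4 genes at the top of this order were present in every library, including the 3 with almost no Krt5, at 24.9 CPM or more. The median of a gene in those 3 libraries, as a percentage of its median in the other 13, was over 50 for 11 of the 37 members. They were Serpinb5 (the serpin maspin, at 8.14 to 20.0 CPM in all libraries), Perp, Dsc2, Krt78, Ppl, Evpl, Krt80, Dsc3, Sprr1a, Ly6d and Sbsn, from 110% for Serpinb5 to 51.9% for Sbsn, with Krt78 at 84.0%. For these 11 genes the levels go against a purely squamous label, since more than 50% of the level remained where basal keratins were nearly absent. Krt78 and Ly6d, described further on, are among them.

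Levels of Krt5 fell into 2 clusters, the 3 libraries with 0 to 4 counts and 13 libraries with 109 or more, separated by 4.15 log2 units, so correlations were computed within the 13. Over these 13 libraries 34 members were correlated with Krt5 on the log2 scale. Of these, 30 passed a permutation test of Pearson's r with Benjamini-Hochberg adjustment over the 34, and 28 passed by Spearman's rho. The same test was not run over all genes, so whether this share is particular to the members is not known. The highest were Krt14 (r = 0.98, rho = 0.93), Pkp1 (r = 0.97, rho = 0.93), Dsg3 (r = 0.96, rho = 0.96) and Trp63 (r = 0.96, rho = 0.92), each with an adjusted permutation p of 0.000216 for r and at most 0.000255 for rho. The smallest unadjusted p that 100000 permutations can give is 1e-05. Ppl had r = 0.94 (adjusted permutation p = 0.000255), Krt80 0.73, Serpinb5 0.62 and Sprr1a 0.57. Krt80 (rho = 0.35, adjusted permutation p = 0.27) and Sprr1a (rho = 0.29, adjusted permutation p = 0.355) did not pass by Spearman's rho. Dsc2 (r = -0.20), Evpl (r = 0.40), Perp (r = 0.43) and Ly6d (r = 0.50) did not pass. Without WT-A 2 and WT-A 3, the 2 libraries farthest from the median of Krt5, r stayed above 0.9 for 4 members and above 0.5 for 26, with Krt14 at 0.95 and Ppl at 0.83. It fell to 0.42 for Krt78, 0.45 for Krt80, 0.31 for Sprr1a and 0.26 for Serpinb5, so for these 4 the relation rested on those 2 libraries. The 13 libraries share a tissue and differ in group, and all members are read from the same library in each point; with levels taken as deviations from the group mean, 31 members passed.

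**Figure D3:**
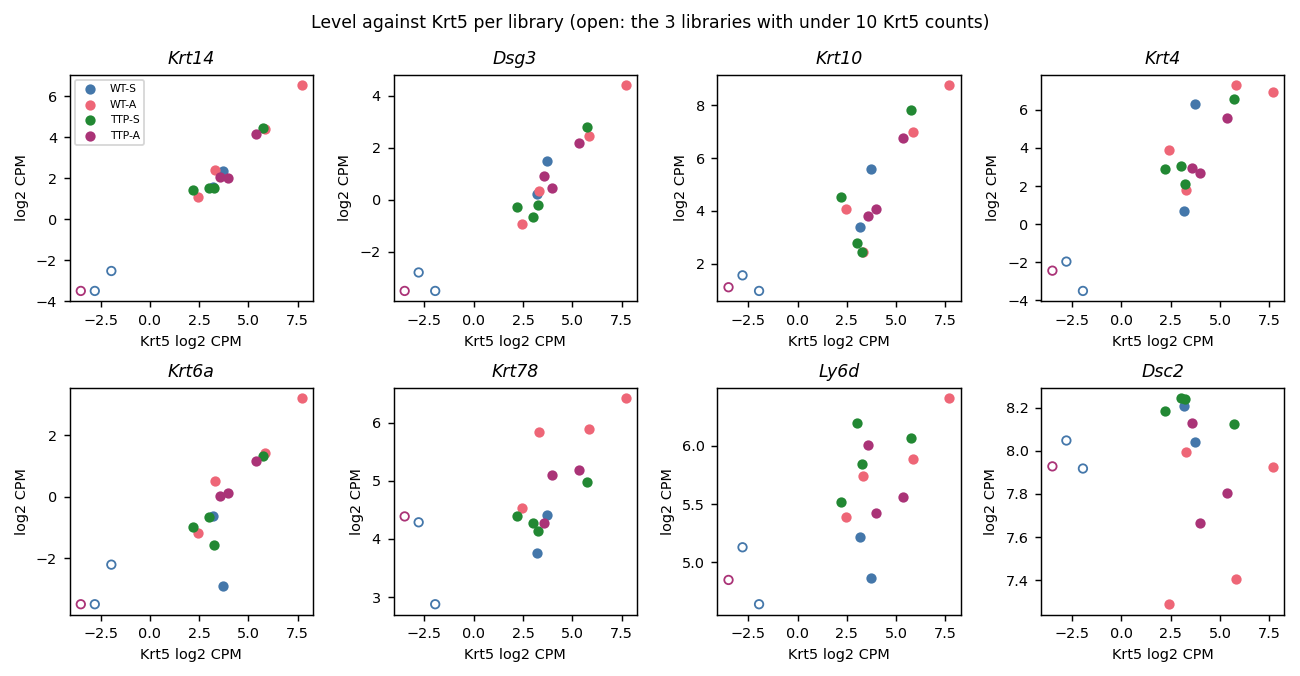
Log2 CPM (prior count 2) of 8 members against that of Krt5, with 1 point per library coloured by group and the 3 libraries with under 10 Krt5 counts drawn open. Krt14 and Dsg3 lie close to a line, Krt10 and Krt4 scatter more widely at moderate Krt5, and Dsc2, at 156 to 303 CPM, shows no rise with Krt5.

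The other genes most like the set, by Pearson's r with the mean log2 CPM of the tested members over 16 libraries, included other squamous genes from the lists used here, such as the gap junction gene Gjb2, the protease inhibitor gene Spink5 and the desmoglein Dsg1b. The 10 highest were Lgals7, Gjb2, Spink5, Dsg1b, Rptn, Cdsn, Asprv1, Crct1, Duox1 and Otop3, with r from 0.96 to 0.98, and WT-A 2 was the highest library for each. In all, 79 non-members had r above 0.9 with that mean, which covers 16 libraries, whereas the correlations with Krt5 cover 13. The hair follicle keratin genes on the list summed to at most 0.0908 CPM in any library, and 3 of the 6 had no counts at all. Whether skin was present in a biopsy was not tested.

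In wild-type mice, adrenalectomised animals (WT-A) were compared with the S group (WT-S). By edgeR's quasi-likelihood test with Benjamini-Hochberg adjustment over the 15385 genes, 8 of 35 members were called at an adjusted p under 0.05, all of them higher in WT-A, where 18.8% of all genes were called and 9.8% were called higher. The 8 were the activation keratins Krt6a, Krt6b, Krt16 and Krt17, the keratin Krt78, and Ly6d, Pkp1 and Bpifc. In all, 33 of 35 members had a positive estimate, the median log2 fold change was 2.60 (against 0.0094 for all genes) and 22 members had an unadjusted p under 0.05, where 36.5% of all genes did. Among the 3 basal keratins, 0 were called although all 3 estimates were positive. Krt14 was at 3.91 (SE 1.33, adjusted p = 0.0511), Krt5 at 3.64 (SE 1.34, adjusted p = 0.0666) and Krt15 at 2.52 (SE 0.95, adjusted p = 0.0719). None of these 3 passed the threshold after adjustment over all genes tested. Their unadjusted edgeR p-values were 0.00983, 0.0155 and 0.0176 in the same order. The other tested panel genes were not called either, and Ivl was not tested. Trp63 had a log2 fold change of 3.33 (SE 1.28, edgeR adjusted p = 0.0755), Dsg3 of 2.86 (SE 1.26, edgeR adjusted p = 0.115), Lor of 2.71 (SE 1.40, edgeR adjusted p = 0.171), Krt13 of 2.29 (SE 1.31, edgeR adjusted p = 0.214) and Krt4 of 1.88 (SE 1.51, edgeR adjusted p = 0.377).

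Single libraries decided these estimates. Leaving out 1 library at a time moved Krt5 from 2.10 (without WT-A 2, edgeR adjusted p = 0.232) to 4.54, and it was called without WT-A 1 (edgeR adjusted p = 0.0321) and without WT-A 4 (0.0469). Trp63 ran from 1.59 (without WT-A 2) to 4.73 and was called without WT-A 1 (edgeR adjusted p = 0.0350). Without WT-S 3, the library with much Krt13 and Krt4 for its Krt5, Krt13 was at 4.94 (edgeR adjusted p = 0.0493) and Krt4 at 7.10 (0.0411), both called, while their lowest estimates were 1.72 and 1.22. Dsg3 ran from 1.27 to 4.27 and Lor from 1.81 to 4.91, and neither was called in any of these fits.

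Krt6b was the 1 activation keratin whose WT-A and WT-S libraries did not overlap. The share of all genes without such overlap was not computed, so this is a description only. It was at 0.0560, 0.0424, 0.352 and 0.870 CPM in WT-S and at 1.62, 28.3, 6.48 and 0.913 CPM in WT-A, with a log2 fold change of 4.83 (SE 1.37, edgeR adjusted p = 0.0254). WT-A 4 lay close to WT-S 4. Krt6a had 4.19 (SE 1.17, edgeR adjusted p = 0.0241), Krt16 5.13 (SE 1.56, edgeR adjusted p = 0.0329) and Krt17 4.22 (SE 1.18, edgeR adjusted p = 0.0245). For these 3 genes the groups overlapped, with WT-A 4 below WT-S 4. Of the 50-base windows of Krt6a, 43.6% also occur in Krt6b, and 44.5% of those of Krt6b in Krt6a, so the division of reads between them is uncertain. The exons of both also overlap other annotated genes, as do those of 6 further members (mostly antisense or microRNA genes), and the strand setting of the counting is not given in the sources used here.

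Krt78 was at 19.4, 7.25, 21.3 and 13.4 CPM in WT-S and at 57.3, 85.8, 59.3 and 23.1 CPM in WT-A, a log2 fold change of 1.89 (SE 0.37, edgeR adjusted p = 0.00478). It remained called in 8 of 8 fits that left out 1 WT-S or WT-A library each. Ly6d, a GPI-anchored surface protein of squamous cells and some other epithelia, was at 34.9, 24.9, 29.1 and 37.1 CPM in WT-S. In WT-A it was at 53.4, 84.7, 59.0 and 41.9 CPM, a log2 fold change of 0.93 (SE 0.24, edgeR adjusted p = 0.0157). Ly6d was called in 7 of 8 such fits. Pkp1 (3.0, SE 1.01, edgeR adjusted p = 0.0482) was called in 2 of 8, and Bpifc, a secreted lipid-binding family member with at most 2.55 CPM, in 3 of 8 (3.61, SE 1.15, edgeR adjusted p = 0.0399). Of the activation keratins, Krt6a and Krt17 were called in 5 of 8, Krt6b in 4 and Krt16 in 3. Their lowest and highest estimates were 2.96 and 5.66 for Krt6a, 2.26 and 6.23 for Krt17, 3.19 and 5.87 for Krt6b and 2.86 and 8.69 for Krt16. The count of 8 depended on single libraries. Over all genes, 2891 were called with every library. Without WT-A 2, 3 members were called (Dsc2 lower, Krt78 and Ly6d higher), while the count over all genes was higher, at 3546. Without WT-S 2, 1 member (Krt78) and 1254 genes were called, and without WT-A 3, 5 members and 1271 genes, so both counts were lower there. Without WT-S 3, 7 members and 1796 genes were called, but only 3 of these members (Bpifc, Krt78 and Ly6d) were among the 8. Leaving out WT-S 4 gave 6 members and 1621 genes. Leaving out WT-S 1 gave 4 members and 2983 genes, leaving out WT-A 4 gave 15 and 2251, and leaving out WT-A 1 gave 20 and 4977. With only the WT-S and WT-A libraries in the fit, 2 members (Krt78 and Ly6d) and 675 of 15040 genes were called.

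**Figure D4:**
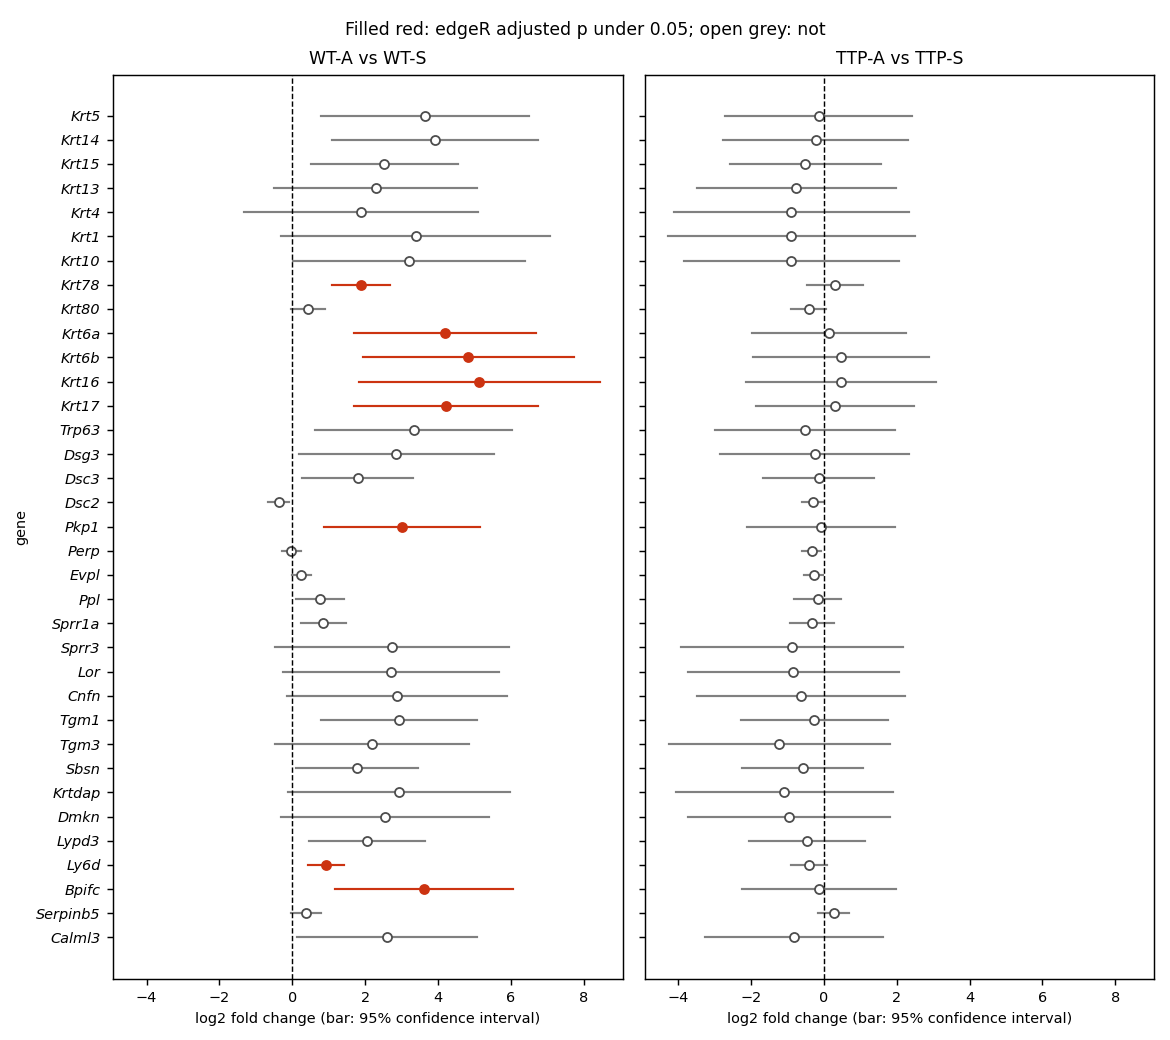
Log2 fold change of each of the 35 tested members with its 95% confidence interval, WT-A against WT-S (left) and TTP-A against TTP-S (right). Red filled points have an edgeR adjusted p under 0.05, and the right panel has none, with intervals on both sides of 0 for nearly all members.

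The TTPΔARE comparisons share libraries with each other and with the wild-type one, so their values are given side by side. In TTP-A against TTP-S, 0 of 35 members were called by edgeR, where 2.9% of all genes were, and 3 had an unadjusted p under 0.05, against 15.9% of all genes. The median log2 fold change was -0.34 and the DESeq2 Wald test also called 0. Krt5 was at -0.14 (SE 1.21, edgeR adjusted p = 0.979) and Krt78 at 0.31 (SE 0.36, edgeR adjusted p = 0.787). The 95% interval for Krt5 ran from -2.72 to 2.43, so a difference of several-fold in either direction was within it. In TTP-S against WT-S, 0 of 35 were called by edgeR, where 0.0325% of all genes were, 2 had an unadjusted p under 0.05 (7.49% of all genes), 34 estimates were positive with a median of 1.2, and DESeq2 called Ly6d. Ly6d was at 66.9, 45.8, 57.3 and 73.2 CPM in TTP-S, with a log2 fold change of 0.95 (SE 0.24, edgeR adjusted p = 0.203). In TTP-A against WT-A, 0 of 35 were called by edgeR, where 5.17% of all genes were, 7 had an unadjusted p under 0.05 (27.5% of all genes), the median was -1.87, and DESeq2 called Evpl. Krt78 was at -1.03 (SE 0.36, edgeR adjusted p = 0.0912). Without WT-A 1, Evpl, Krt15 and Krt80 were called there, among 3202 of 15459 genes called, and without WT-A 4 Krt78, among 504 of 15469. In the test of the difference between the 2 adrenalectomy effects, 0 of 35 were called by edgeR, where 0.0585% of all genes were, 18 had an unadjusted p under 0.05 (15.2% of all genes), the median was -3.18, and DESeq2 called Ly6d. The estimate was -1.34 (SE 0.33, edgeR adjusted p = 0.124) for Ly6d and -4.36 (SE 1.80, edgeR adjusted p = 0.286) for Krt6b. The 95% interval of the difference for Krt6b ran from -8.19 to -0.53, so the genotypes were not shown to differ after adjustment and were not shown to respond alike.

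Where Krt5 was present, the ratio of a gene to Krt5 compares libraries with different amounts of squamous RNA. Among the 13 libraries, Krt14 per Krt5 varied by 2.27-fold, Pkp1 by 2.55-fold, Dsg3 by 3.08-fold and Trp63 by 3.59-fold. The activation keratins per Krt5 varied more. Krt6b gave 2.7 and 9.66 counts per 100 Krt5 counts in WT-S 3 and 4, 11.4 to 17.2 in the 4 WT-A libraries, 2.11 to 11.0 in the 4 TTP-S libraries and 12.6 to 16.5 in the 3 TTP-A libraries with Krt5. All 7 libraries from adrenalectomised mice lay above all 6 of the other libraries for this ratio. The share of all genes that separate in this way per Krt5 was not computed. The exact 95% intervals for counting alone are wide at low counts: TTP-S 2, with 12 Krt6b counts, had 5.52 to 20.0. The other 3 activation keratins per Krt5 overlapped between the A and S groups. Krt6a gave 4.39 to 13.7 in the A and 0.338 to 9.17 in the S libraries, Krt16 6.31 to 15.9 and 0 to 11.7, and Krt17 was at 26.7 in WT-S 4 and 9.60 in WT-A 3.

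The sum of the 4 activation keratins per sum of the 3 basal keratins was 0.254, 0.253, 0.215 and 0.286 in TTP-S and 0.379, 0.432 and 0.349 in TTP-A 1, 2 and 4. TTP-A 3 had too few basal keratin counts to give a ratio. The log2 difference was 0.62 by group means, and an exact two-sided permutation test gave p = 0.0286, the smallest that 35 arrangements allow. Leaving out any 1 of the 7 libraries gave 0.54 to 0.69, with p of 0.0667 or 0.1 by the same exact test, the smallest possible at those sizes. This comparison, like the order of Krt6b per Krt5, was chosen after the values were seen, so its p-values describe the separation and are no support for a difference. In wild type the ratio was 0.0255 and 0.349 in WT-S 3 and 4 and 0.459, 0.334, 0.203 and 0.343 in WT-A, a log2 difference of 1.77 with an exact permutation p of 0.267, where the smallest possible is 0.0667. The wild-type difference rested on WT-S 3 (without it, -0.12). Over the 13 libraries this ratio had an 18.0-fold range. Krt1 and Krt10 per basal keratins ran from 0.582 to 6.69 (11.5-fold), and Krt13 and Krt4 per basal keratins from 0.778 to 7.53 (9.68-fold), highest in WT-S 3.

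**Figure D5:**
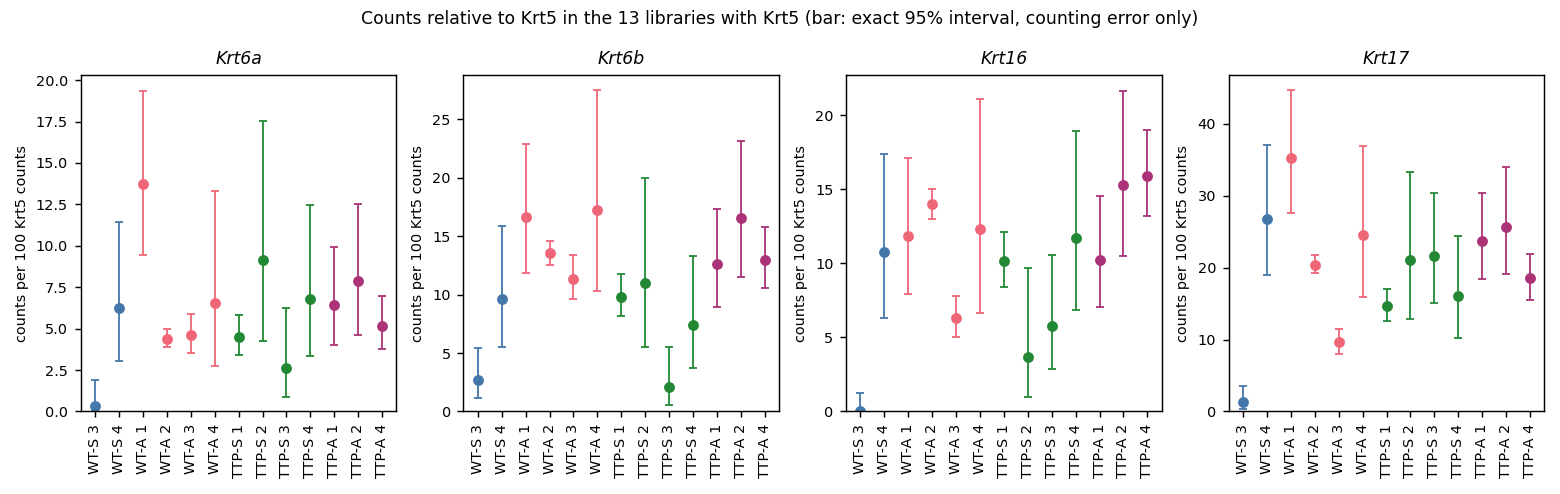
Counts of each activation keratin per 100 Krt5 counts in the 13 libraries with Krt5, coloured by group, with exact 95% intervals that cover counting error only. For Krt6b the libraries of the A groups lie at 11.4 to 17.2 and those of the S groups at 2.11 to 11.0, whereas for Krt6a, Krt16 and Krt17 the groups overlap.

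Other genes listed as squamous were read in the same fits. In WT-A against WT-S, where 18.8% of all genes were called, 6 of 20 tested further squamous genes were called, all higher (list median 2.21). They were Anxa8, Il1rn (the interleukin-1 receptor antagonist), the water and glycerol channel Aqp3, the epithelial adaptor stratifin (Sfn), Capns2 and Trim29. Of 8 tested squamous transcription factors, Tfap2a, Klf5 and Sox2 were called higher (median 1.24). Klf5, Sox2, Aqp3 and Sfn were not confined to libraries with Krt5. In TTP-A 3, with 0 Krt5 counts, they were at 123.3, 15.99, 67.3 and 34.4 CPM. Trim29 and Tfap2a were at 0.480 and 0.192 CPM in that library. Calls for Klf5, Sox2, Aqp3 and Sfn therefore cannot be read as squamous tissue alone. Of 12 tested late cornified envelope genes, 1 was called, Sprr2b, although the median was 2.38. Of 5 desmosome genes shared with simple epithelium, Jup and Pkp3 were called higher (median 0.08), and of 7 hemidesmosome and laminin-332 genes, Itgb4, Plec and Itga6 (median 0.15). Basal layer markers (0 of 5 called, median 3.33) and suprabasal and cornified markers (0 of 8, median 2.72), which are mostly members, had the largest medians of the squamous lists with the fewest calls. In TTP-A against TTP-S, where 2.9% of all genes were called, the further squamous genes had 1 call of 20, Anxa8 (log2 fold change 3.20, SE 0.72, edgeR adjusted p = 0.029), and a list median of -0.34. Klf5 was called higher and Ovol1 lower there among the transcription factors. Ovol1 too was present in TTP-A 3, at 16.6 CPM.

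Markers of other tissues were read in the same wild-type comparison, where 18.8% of all genes were called and 9.8% were called higher. Smooth muscle genes were called higher in 5 of 6 (Des, Acta2, Actg2, Cnn1 and Tagln) and skeletal muscle genes in 3 of 5 (Ckm, Tnni2 and Acta1). Of 10 neutrophil genes only Retnlg and Ltf passed the filter, and both were called higher. The neutrophil list summed to 0.551 to 1.69 CPM in WT-S and 3.61 to 49.1 CPM in WT-A. Most of the WT-A sum was Ltf (lactoferrin) alone, at 8.63, 46.6, 16.7 and 2.83 CPM. The other 8 genes had at most 20 counts in any library, and S100a8, a defining neutrophil gene, at most 7. WT-A 2, the library with the most squamous RNA, also had the most Ltf. Of 6 simple epithelium keratins, Krt7, Krt18 and Krt20 were called higher. Of 11 corpus gland genes, Pgc, Gif and Chia1 were called lower, and the list summed to 151882 to 230880 CPM in WT-S and 101674 to 178716 CPM in WT-A. Of 5 antrum and duodenum genes Alpi was called higher, and 0 of 6 adipocyte genes were called. The part of these tissues in the squamous differences was not tested.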

How the data were processed

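Per the labels' protocols, RNA was extracted with TRIzol and libraries were made with an Illumina TruSeq RNA kit. The authors deposited a table of raw read counts per gene symbol. The submitters' processing notes name STAR 2.7.0f, featureCounts, Subread 1.6.4, DESeq2 and the build mm10; the annotation, strandedness and filters are not given in the sources used here. From these counts, CPM and log2 CPM (prior count 2) were computed with TMM. Genes passing filterByExpr were fitted with edgeR 4.0.16 (glmQLFit, glmQLFTest; R 4.3.3) with 4 group means over 16 libraries, adjusted over all genes tested and called at 0.05. DESeq2 1.42.0 was an alternative. Coordinates and exon lengths come from GENCODE M21, promoters from RefSeq (GRCm38.p6). On simulated counts for WT-A against WT-S (15279 genes), 88% of 2-fold and 95% of 4-fold changes were recovered, with 15 false calls among 198; these genes had the average spread for their level, far below that of most members, so this recovery does not carry over to the members. The members and gene lists were chosen with earlier results of these data known. Folds and tests are given for called members and a panel (Krt5, Trp63, Krt13, Krt4, Ivl, Lor, Dsg3); other names were chosen after values were seen. Alternatives were size factors, filter, test, libraries fitted, replicate block and leaving out each library.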

Additional observations from a re-analysis of the deposited data

Results flagged for a closer look

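In each group of 4 libraries a gene was marked where 1 library lay far from the other 3 relative to the range of the group. Of 60 groups examined (15 genes), 23 in 13 genes were marked, whereas chance marks about 1 in 20 groups of normally distributed values. That rate was not measured for CPM values spread as widely as these, and the genes vary together, so the marks are not independent. TTP-S 1 was the high library of its group for Krt5 (53.1 CPM), Trp63 (6.60 CPM), Krt13 (135 CPM), Krt4 (94.7 CPM), Ivl (1.78 CPM), Lor (60.2 CPM), Dsg3 (6.81 CPM), Pkp1 (17.4 CPM), Bpifc (1.26 CPM), Krt16 (5.39 CPM), Krt17 (7.78 CPM), Krt6b (5.23 CPM) and Krt6a (2.39 CPM). WT-S 3 was high for Krt13 (89.9 CPM), Krt4 (79.2 CPM) and Lor (25.0 CPM), but WT-S 4 was high for Krt16 (0.973 CPM) and Krt17 (2.41 CPM). WT-A 2 was high for Ivl (1.10 CPM), Krt16 (29.3 CPM) and Krt17 (42.6 CPM). TTP-A 4 was high for Krt4 (47.9 CPM) and Lor (29.4 CPM).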

How the results depend on the processing

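Members called in WT-A against WT-S numbered 8 and became 2 with only the groups compared in the fit and 1 to 20 with 1 library left out; DESeq2 and the fit without WT-A 3 and WT-A 4 each called 12. Over all genes the calls were 2891, and 675, 1254 to 4977, 3485 and 1620 in these fits. With the replicate block 5 members were called, and 2853 genes over all. Deviations of same-numbered libraries from their group means had r from -0.513 to 0.331. Libraries with different numbers were not compared in this way, so whether the numbers pair the samples was not settled. In TTP-A against TTP-S the count of 0 became 2 without WT-A 3 and WT-A 4, 3 with only those groups fitted (446 calls over all genes, then 977 and 1195) and 0 to 1 with 1 library left out. It became 1 in TTP-S against WT-S with only those groups or with DESeq2, and 1 by DESeq2 in TTP-A against WT-A and in the genotype difference, where leaving out 1 library gave 0 to 3 and 0 to 1. Calls over all genes in these 3 comparisons moved widely too. In TTP-S against WT-S they were 5, then 57 without WT-A 3 and WT-A 4, 60 with only those groups, 97 by DESeq2 and 1 to 16 with 1 library left out. In TTP-A against WT-A they were 796, then 292, 1, 1619 and 86 to 3202 in the same order. In the genotype difference they were 9, then 46 without WT-A 3 and WT-A 4, 4 with the replicate block, 256 by DESeq2 and 2 to 211 with 1 library left out. In TTP-A against TTP-S they were 854 by DESeq2 and 60 to 937 with 1 library left out. Without TTP-S 1, estimates for TTP-A against TTP-S changed sign; over libraries left out they ran from -1.05 to 1.24 for Krt5, -1.46 to 1.06 for Trp63, -2.05 to 1.38 for Krt13, -2.60 to 1.22 for Krt4, -2.42 to 1.67 for Lor and -1.14 to 1.44 for Dsg3. For TTP-S against WT-S they ran from -1.48 to 3.31 for Krt13, -1.62 to 5.71 for Krt4, -1.31 to 3.39 for Lor and -0.50 to 2.61 for Dsg3. The log2 difference of the summed CPM was 0.85 in WT-A against WT-S and 0.50 in TTP-S against WT-S, and 2.40 and 1.31 as a mean of log2 CPM over members. The activation per basal keratin difference ran from 0.54 to 0.69 in TTP-A against TTP-S and from -0.12 to 3.66 in WT-A against WT-S. The causes were not tested. Ratios rest on few counts in libraries with little Krt5.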
